A study of Mus musculus with 13 samples.

Results

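Members of the guanylate-binding protein (GBP) and immunity-related GTPase (IRG) families were followed through 13 mouse livers. Their 10 genes, Gbp2, Gbp3, Gbp5, Gbp6, Gbp7, Gbp9, Irgm1, Irgm2, Igtp and Iigp1, were chosen by symbol from the 22048 genes of the count table, and all 10 were found there and passed the filter on low counts. Whole liver had been profiled by RNA-seq in 6 control livers with their hepatic stellate cells in place (3 male, 3 female), in 4 livers depleted of hepatic stellate cells (1 male, 3 female) and in 3 non-depleted livers 72 h after partial hepatectomy (2 male, 1 female). Stellate cells are the pericytes of the liver sinusoids and store vitamin A, and partial hepatectomy removes part of the liver and sets off regrowth of the rest. The labels used here give no strain, genotype, age, method of depletion or sequencing batch, so what those add to a difference between groups cannot be told apart from it. The labels list the libraries of a group as replicates without saying that each came from a separate animal. Each group holds both sexes and thus more than 1 animal. The p-values measure the spread between these libraries, which may be technical in part.

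GBPs and IRGs are GTPases of cell-autonomous immunity. Interferon-gamma, made by natural killer (NK) and T cells, binds a receptor of Ifngr1 and Ifngr2 chains, whose Jak1 and Jak2 kinases start a signal to the nucleus, where factors such as Irf1 switch the GTPase genes on. The DNA elements through which this happens include the gamma-activated site (GAS) and the interferon-stimulated response element (ISRE), to which interferon regulatory factors bind. The proteins assemble on membranes of vacuoles that hold bacteria or parasites: GBPs break these open and feed microbial products to inflammasomes, effector IRGs such as Iigp1 (Irga6) disrupt the vacuole, and the regulatory IRGs Irgm1, Irgm2 and Igtp (Irgm3) keep the effectors off the cell's own membranes. In mouse liver Iigp1 is known to be transcribed without infection from a liver-specific promoter.

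The genes lie on 4 chromosomes of the mm10 genome, most of them in clusters. Gbp5 (chromosome 3, 142493978 to 142522344), Gbp7 (142530342 to 142550149), Gbp3 (142560026 to 142573209) and Gbp2 (142620602 to 142638008) stand in that order on the plus strand of chromosome 3. Gbp9 (chromosome 5, 105077630 to 105139539) and Gbp6 (105270702 to 105293698) are on the minus strand of chromosome 5. Irgm1 (chromosome 11, 48861968 to 48871683, minus strand) is apart from Igtp (58199556 to 58207591) and Irgm2 (58199618 to 58222779), which overlap on the plus strand of chromosome 11 and share 162 exon bases. How reads with several matches were assigned is not given in the sources used here, so the genes differ in how far their counts can be trusted. In GENCODE M21 transcripts, 70.7% of the 50-base words of Gbp6 also occurred in other genes, and 65% of all its words occurred in Gm43302, with which Gbp6 shares 1726 exon bases. The share was 12.7% for Gbp7, 11.8% for Igtp (all in Irgm2), 8.05% for Gbp9, 7.77% for Irgm2 and 0.31% to 3.75% for the other 5.

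RefSeq promoter windows of 300 bases, from 250 before a transcript start to 50 after it (GRCm38.p6), were at hand for 7 of the 10 genes; Gbp6, Gbp9 and Iigp1 were not matched. The letter patterns searched in them were GAAANNGAAA on either strand (read as TTTCNNTTTC on the other) for the ISRE and TTCNNNGAA, the same on both strands, for the GAS; the patterns may overlap each other. All 7 genes had at least 1 ISRE match, in 7 of their 8 windows (Gbp3 has a further window with neither pattern), against 3.44% of all 32851 windows, and 4 (Gbp5, Gbp7, Igtp and Irgm2) also had a GAS match, against 8.3% of windows for a GAS and 0.454% for both. A match is a string of letters, and no binding was measured here. The 4 windows below are shown because Gbp5 and Gbp2 had the largest differences between depleted and control livers and because Igtp and Irgm2 overlap and have windows that are close in sequence. Capitals mark the ISRE and GAS matches.
Gbp2, chr3:142620413-142620712, plus strand: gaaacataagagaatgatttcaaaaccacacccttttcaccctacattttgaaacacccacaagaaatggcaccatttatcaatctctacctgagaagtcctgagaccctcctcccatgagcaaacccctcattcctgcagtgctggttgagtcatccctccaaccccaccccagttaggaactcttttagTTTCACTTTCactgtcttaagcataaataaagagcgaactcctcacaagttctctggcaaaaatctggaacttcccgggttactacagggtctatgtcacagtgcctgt
Gbp5, chr3:142496684-142496983, plus strand: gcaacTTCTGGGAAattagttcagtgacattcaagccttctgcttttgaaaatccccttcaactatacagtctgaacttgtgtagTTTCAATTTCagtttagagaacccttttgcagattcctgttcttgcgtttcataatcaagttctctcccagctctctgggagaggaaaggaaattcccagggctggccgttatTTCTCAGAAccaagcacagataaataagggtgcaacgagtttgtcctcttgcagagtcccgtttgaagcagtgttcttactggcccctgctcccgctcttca
Igtp, chr11:58199306-58199605, plus strand: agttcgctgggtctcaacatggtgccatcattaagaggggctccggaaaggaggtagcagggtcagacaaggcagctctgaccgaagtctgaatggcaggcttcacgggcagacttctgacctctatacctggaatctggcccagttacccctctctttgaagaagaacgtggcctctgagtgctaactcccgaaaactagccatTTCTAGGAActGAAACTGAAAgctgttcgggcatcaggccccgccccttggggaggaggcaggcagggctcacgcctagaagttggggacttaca
Irgm2, chr11:58214727-58215026, plus strand: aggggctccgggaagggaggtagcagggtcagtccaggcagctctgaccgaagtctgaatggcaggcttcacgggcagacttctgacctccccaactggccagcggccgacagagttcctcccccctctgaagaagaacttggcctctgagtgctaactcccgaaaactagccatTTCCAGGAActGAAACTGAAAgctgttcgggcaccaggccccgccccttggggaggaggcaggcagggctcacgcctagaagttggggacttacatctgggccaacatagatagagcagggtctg
The Gbp2 window held an ISRE match that began 59 bases before the transcript start. The Gbp5 window, placed at a start inside the gene span given above, held an ISRE match at -165 and GAS matches at -245 and -52. In Igtp a GAS match at -45 stood beside an ISRE match at -34, and Irgm2 had the same arrangement at -75 and -64. The Igtp and Irgm2 windows were 91.1% identical over 271 aligned columns, against 58.7% over 230 columns for Gbp2 and Gbp5.

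Depth ran from 35360991 to 51008737 counts per library (35360991 to 42784362 in controls, 37848305 to 51008737 in depleted and 39633635 to 46228433 in hepatectomised livers). Levels are in CPM, read counts brought to a common library total with edgeR's TMM scaling. By library total, before that scaling, 3 counts correspond to 0.0588 to 0.0848 CPM, a limit that covers counting error only. All 12 stellate cell markers examined fell in depleted livers by the edgeR quasi-likelihood test, where 15% of all genes did, and their summed level was 15.5 to 74.7 CPM there against 305 to 801 CPM in controls and 338 to 634 CPM after hepatectomy. The 10 hepatocyte markers summed to 69730 to 186800 CPM in every library, as in liver. Control replicate 6 and hepatectomised replicate 2, both male, stood apart with macrophage marker sums of 109.6 and 122.8 CPM, where the other 11 libraries had 428.5 CPM or more, and with endothelial sums of 120 and 113.6 CPM, where the others had 292.4 CPM or more. Counts of called genes are therefore also given without these 2 libraries, a choice made after seeing the data.

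All 10 GTPase genes were higher in stellate cell-depleted than in control livers. Their log2 fold changes ran from 2.46 for Iigp1 to 5.48 for Gbp5, with a median of 3.21 against -0.03 over the 13831 genes tested. By edgeR's quasi-likelihood F-test with Benjamini-Hochberg adjustment over all genes tested, 10 of 10 were called higher and none lower, where 18.9% of all genes were called higher and 15% lower at an adjusted p under 0.05. The lowest depleted liver lay above the highest control for 10 of 10, against 16.5% of all genes. Together the 10 genes took 0.517% to 0.922% of the reads of a depleted liver and 0.05% to 0.101% of a control. In bulk liver, more cells of a type that expresses a gene and more RNA per cell cannot be told apart. The count of 10 was the same without control replicate 6 and hepatectomised replicate 2.

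**Figure D1:**
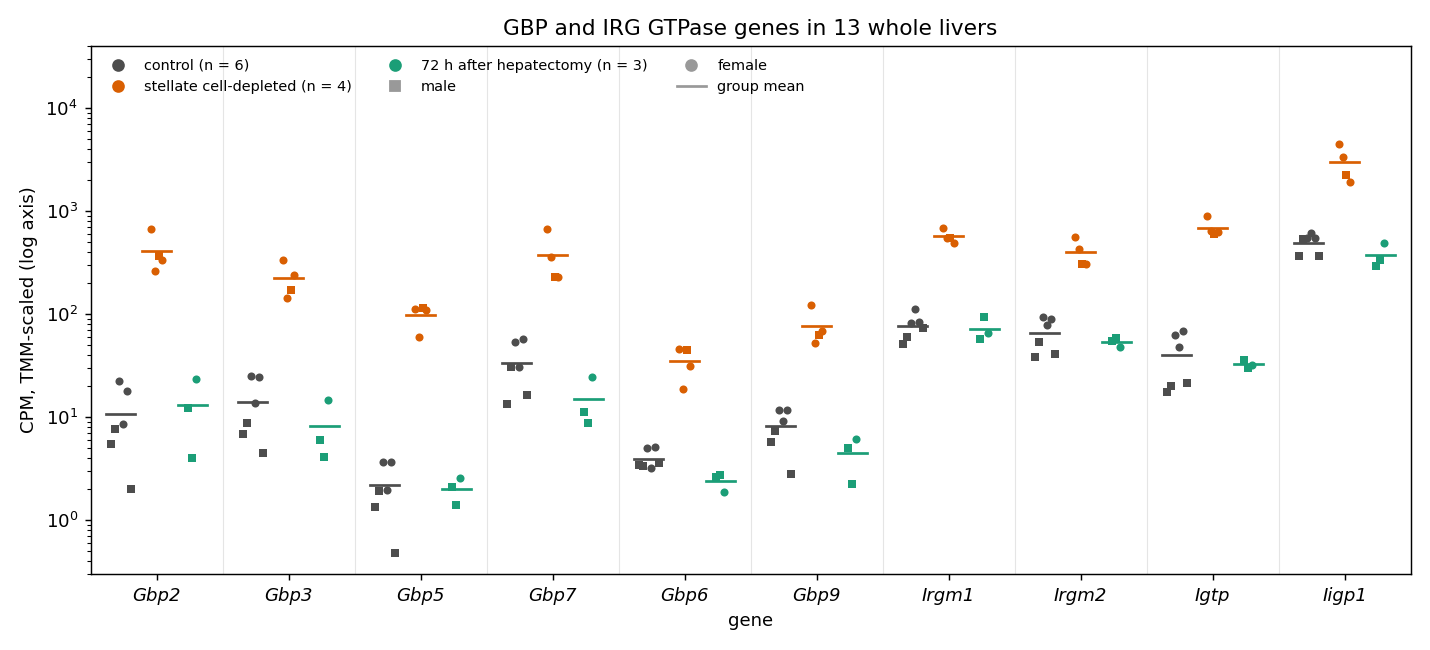
TMM-scaled CPM (log axis) of the 10 GBP and IRG genes in each of 13 livers, by group (colour) and sex (square male, circle female); lines are group means. For each gene the 4 depleted livers lie above all 6 controls and all 3 hepatectomised livers, and in controls the squares lie below the circles for 9 genes, Gbp6 being the exception.

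Of the 10 genes, Gbp5 and Gbp2 of the chromosome 3 cluster had the largest fold changes. Gbp5, which promotes assembly of the Nlrp3 inflammasome, was at 113, 60.3, 114 and 109 CPM in depleted replicates 1 to 4, at 0.480 to 3.70 CPM (median 1.95) in controls and at 2.12, 1.40 and 2.57 CPM in hepatectomised replicates 1 to 3. The lowest depleted liver was 16.3 times the highest control, and the log2 fold change was 5.48 ± 0.40 (SE; edgeR adjusted p = 3.23e-06). Gbp2, which coats pathogen vacuoles and opens bacteria to cytosolic sensors, was at 674, 261, 363 and 337 CPM in depleted livers, at 2.01 to 22.4 CPM (median 8.16) in controls and at 12.2, 4.01 and 23.4 CPM after hepatectomy. Its controls spanned 11.2-fold from lowest to highest, the widest control span of the 10 genes, and still lay below the depleted livers, with a log2 fold change of 5.23 ± 0.51 (edgeR adjusted p = 1.97e-05). Gbp3, a neighbour in the same cluster, was at 335, 143, 173 and 242 CPM in depleted livers, at 4.47 to 25.1 CPM (median 11.3) in controls and at 5.996, 4.155 and 14.67 CPM after hepatectomy. Its log2 fold change between depleted and control livers was 3.92 ± 0.32 (edgeR adjusted p = 5.73e-06). Gbp7, linked to delivery of the phagocyte oxidase to vacuoles, was at 674, 357, 231 and 228 CPM in depleted livers, at 13.4 to 57.3 CPM (median 30.8) in controls and at 11.3, 8.81 and 24.8 CPM after hepatectomy. Its difference from control was smaller, at 3.27 ± 0.32 on the log2 scale (edgeR adjusted p = 1.94e-05), and depleted replicate 1 was 2.95 times replicate 4.

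The chromosome 5 genes are Gbp9 and Gbp6. Gbp9 was at 124, 53.0, 63.4 and 68.5 CPM in depleted livers, at 2.79 to 11.9 CPM (median 8.32) in controls and at 5.03, 2.27 and 6.11 CPM after hepatectomy. Gbp6 was at 46.4, 18.8, 44.8 and 31.1 CPM in depleted livers, at 3.19 to 5.10 CPM (median 3.54) in controls and at 2.62, 2.72 and 1.87 CPM after hepatectomy. Their log2 fold changes in depleted livers were close, 3.13 ± 0.32 for Gbp9 and 3.16 ± 0.25 for Gbp6 (edgeR adjusted p = 2.26e-05 and 4.65e-06), and the Gbp6 value carries the sequence sharing described above.

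Among the regulatory IRGs, Igtp had the largest change. It was at 894, 642, 598 and 624 CPM in depleted livers, at 17.6 to 68.9 CPM (median 34.7) in controls and at 36.3, 29.8 and 32.3 CPM after hepatectomy. The log2 fold change of 4.08 ± 0.28 (edgeR adjusted p = 1.52e-06) had the smallest p of the 10 genes. Irgm1 was at 686, 545, 548 and 494 CPM in depleted livers, at 51.1 to 113 CPM (median 77.9) in controls and at 57.3, 94.4 and 65.6 CPM after hepatectomy, a log2 fold change of 2.83 ± 0.20 in depleted livers (edgeR adjusted p = 1.85e-06). Irgm2 was at 554, 430, 305 and 310 CPM in depleted livers, at 38.5 to 93.1 CPM (median 66.3) in controls and at 55.1, 59.0 and 48.5 CPM after hepatectomy. Irgm2 rose by 2.50 ± 0.22 on the log2 scale (edgeR adjusted p = 6.9e-06), less than Igtp; the difference between the 2 changes was not tested.

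Iigp1, the effector IRG (chromosome 18, 60376029 to 60392627, plus strand), was the most abundant of the 10 genes in every group and had the smallest fold. It was at 4431, 3339, 2230 and 1917 CPM in depleted livers, at 366 to 610 CPM (median 538) in controls and at 296, 332 and 488 CPM after hepatectomy. The log2 fold change in depleted livers was 2.46 ± 0.21 (edgeR adjusted p = 6.28e-06), and the lowest depleted liver was 3.14 times the highest control.

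**Figure D2:**
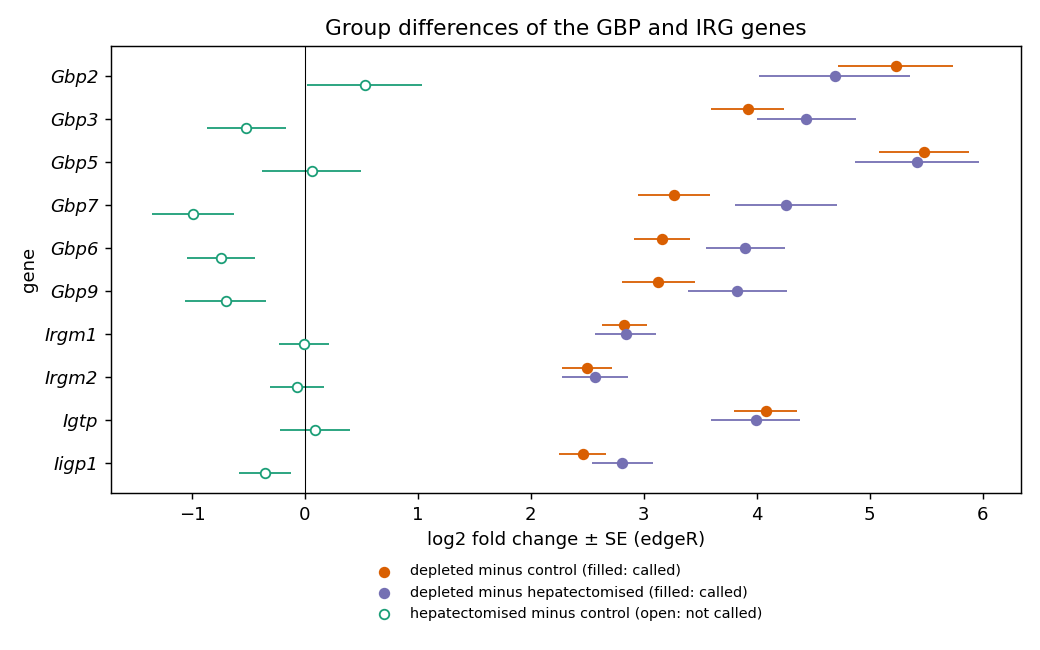
Fitted log2 fold changes (± SE, edgeR) of the 10 genes in 3 comparisons; filled points passed an adjusted p of 0.05 and open points did not. Depleted livers differ from controls by 2.46 to 5.48 and from hepatectomised livers by 2.57 to 5.42, while the hepatectomised against control values lie between -0.99 and 0.53. The 3 comparisons share libraries.

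Per kilobase of exon, where levels of different genes can be compared, the control order began with Iigp1 at 159 ± 32.8 CPM per kb (SD, n = 6). Igtp (19.7 ± 11.5), Irgm2 (18.2 ± 6.79) and Irgm1 (13.3 ± 3.73) followed, then Gbp7 (6.0), Gbp3 (4.27), Gbp2 (4.26), Gbp9 (1.57), Gbp6 (0.665) and Gbp5 (0.329). Only the step from Iigp1 to Igtp separated neighbours whose ranges did not overlap. In depleted livers the order was Iigp1 (955 ± 367 CPM per kb, SD, n = 4), Igtp (341 ± 67.9), Gbp2 (162 ± 72.4), Irgm2 (110), Irgm1 (97.8), Gbp3 (68.4), Gbp7 (66.4), Gbp9 (14.9), Gbp5 (14.9) and Gbp6 (5.92). There the ranges of Iigp1 and Igtp, of Igtp and Gbp2, of Gbp7 and Gbp9, and of Gbp5 and Gbp6 did not overlap, and the other neighbours could not be ordered beyond their spread. How shared reads were assigned is not given, so the place of Gbp6 in each order carries the sequence sharing described above. After hepatectomy the order was again led by Iigp1 (119 ± 32.6 CPM per kb, SD, n = 3), Igtp (16.2 ± 1.63), Irgm2 (15.0 ± 1.46) and Irgm1 (12.5 ± 3.35).

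The make-up of the family differed along with its level. Of the summed CPM per kb of the 10 genes, Iigp1 made up 71.0% ± 6.37 in controls (SD, n = 6), 51.2% ± 5.89 in depleted livers (n = 4) and 67.6% ± 4.08 after hepatectomy (n = 3). Igtp went from 8.18% ± 3.13 in controls to 19.1% ± 2.7 in depleted livers, Gbp2 from 1.73% ± 0.990 to 8.81% ± 2.11 and Gbp5 from 0.136% ± 0.0589 to 0.874% ± 0.359. For these 4 genes the control and depleted ranges did not overlap, with Iigp1 at 63.1% to 77.8% against 44.6% to 58.3%. The ranges of Irgm2 were also apart, at 6.77% to 9.25% in controls and lower, at 5.73% to 6.48%, in depleted livers. Those of the remaining genes overlapped. Shares of a sum depend on each other, so these values describe the same differences in another form and were not tested.

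**Figure D3:**
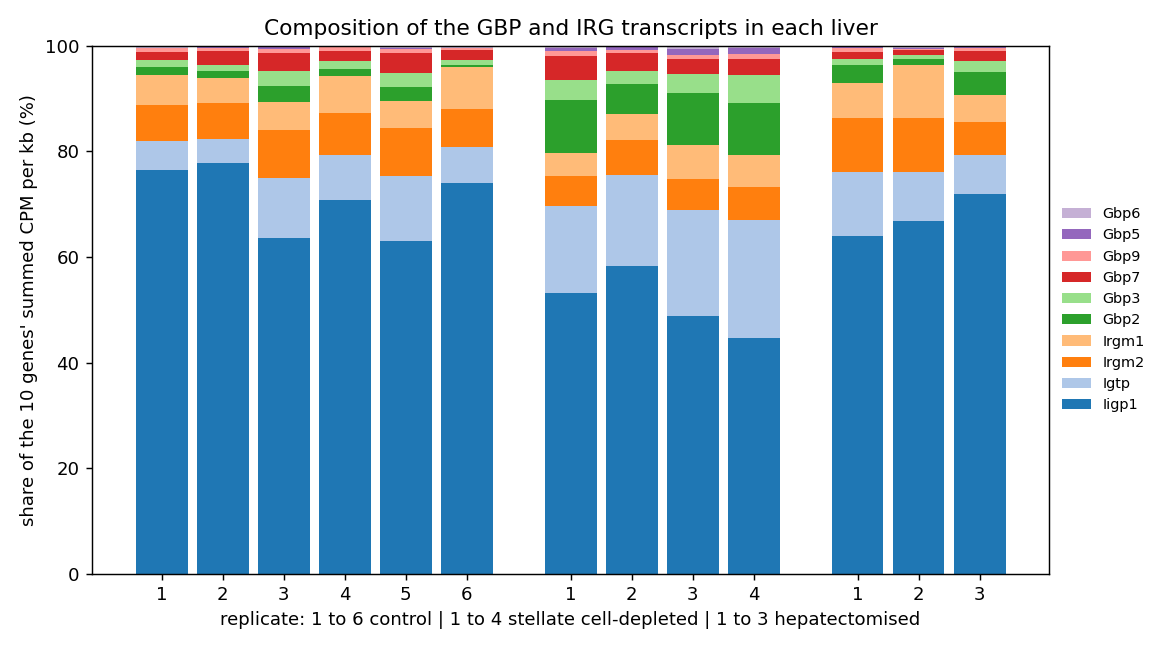
Share (%) of each of the 10 genes in their summed CPM per kb, 1 bar per liver, grouped as 6 control, 4 depleted and 3 hepatectomised livers. Iigp1 takes 63.1% to 77.8% in controls and 44.6% to 58.3% in depleted livers, where the Igtp and Gbp2 segments are larger.

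The depleted livers also differed among themselves. Replicate 1 was the highest for 9 of the 10 genes (all but Gbp5, highest in replicate 3), and its summed level was 8532 CPM against 5850, 4669 and 4360 CPM in replicates 2 to 4. Replicate 2 was the lowest for 5 genes, all of them GBPs (Gbp2, Gbp3, Gbp5, Gbp6 and Gbp9). Replicate 4 was the lowest for Gbp7, Irgm1 and Iigp1, and replicate 3 for Irgm2 and Igtp. Lymphocyte and macrophage markers had another order than the GTPase genes: T cell markers summed to 50.96, 49.26, 104.5 and 114 CPM in depleted replicates 1 to 4, NK markers to 90.5, 78.9, 196 and 179 CPM, and macrophage markers to 2052, 1837, 2708 and 3485 CPM. Replicates 3 and 4 had the highest sums of these 3 lists, and replicate 1, the highest for 9 of the GTPase genes, did not. Other lists ran differently. Hepatocyte markers summed to 125200, 173000, 84420 and 69730 CPM in replicates 1 to 4, sinusoidal endothelial markers to 703.7, 704.4, 660.2 and 401 CPM, and neutrophil and monocyte markers to 359.5, 253.8, 373.7 and 224.8 CPM. Replicate 1 was the second highest for each of these 3 lists and replicate 4 the lowest, as it was for the summed level of the GTPase genes. Stellate cell markers summed to 15.49, 15.46, 19.11 and 74.71 CPM in replicates 1 to 4, so replicate 4 kept the most of their signal. The part of any of these cell types in the differences among the 4 livers was not tested. Iigp1 is the largest part of the summed level; by the mean log2 CPM of the 10 genes, which weights them equally, the 4 livers stood at 8.70, 7.84, 7.98 and 7.94. Across all 13 libraries the log2 CPM of the 45 pairs of genes correlated at r = 0.911 to 0.99 (median 0.956), over libraries that share the difference between groups. After group and sex means were removed, r ran from -0.282 (Gbp2 with Irgm1) to 0.947 (Gbp2 with Gbp9), with a median of 0.5. Gbp2, Gbp3 and Gbp5 stayed close (r = 0.892 to 0.936), and Irgm1 had the 4 lowest values, with Gbp2, Gbp9, Gbp3 and Gbp5 (-0.282 to -0.100).

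After partial hepatectomy no member passed the test against control. The edgeR quasi-likelihood test called 0 of 10, where it called 8.42% of all genes (6.06% higher and 2.36% lower). The fitted log2 differences were positive for 3 genes and negative for 7, from -0.99 for Gbp7 to 0.53 for Gbp2, with a median of -0.21 against -0.02 over all genes. An unadjusted p under 0.05 was found for 2 of 10. These were Gbp7 (-0.99 ± 0.36, edgeR adjusted p = 0.114) and Gbp6 (-0.74 ± 0.30, edgeR adjusted p = 0.148). DESeq2 called 1 of 10, Gbp7 (adjusted p = 0.0412), and called 14% of all genes, 5.39% lower. With library size as the only scaling edgeR also called Gbp7 alone (-1.20, adjusted p = 0.0384), where it called 11.3% of all genes lower, and limma-voom called 0 members. Gbp6 was the one member whose hepatectomised livers (1.87 to 2.72 CPM) all lay below the controls (3.19 to 5.10 CPM), against 6.25% of all genes. Scaling by library size alone shifted the median of all genes to -0.24, from which the Gbp7 value under it has to be read, and turned the 838 higher and 326 lower calls over all genes into 626 and 1566. With replicate number as a block, edgeR called 632 of 13831 genes in place of 1164, or 4.57%, and again 0 of the 10 members. Without control replicate 6 and hepatectomised replicate 2 the counts were 412 over all genes and 0 for the members. A p above the threshold does not show that levels were equal: with a standard error of 0.22 to 0.51 on the log2 scale, modest differences were not detectable with 3 hepatectomised livers.

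Depleted livers were also compared with hepatectomised livers directly. All 10 genes were called higher by edgeR, against 13.3% of all genes, and the ranges were apart for 10 of 10, against 18.1% of all genes. Log2 differences ran from 2.57 ± 0.29 for Irgm2 to 5.42 ± 0.55 for Gbp5 (edgeR adjusted p = 0.000124 and 8.54e-05), with a median of 3.95 against -0.05 over all genes. Gbp2 stood at 4.69 ± 0.67 (edgeR adjusted p = 0.000585), and at 4.10 without depleted replicate 3, the only male of its group. This comparison shares its depleted livers with the one against control.

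Male and female controls were compared after seeing the data. The edgeR test on the 6 controls called 2 of 10 genes, Irgm2 and Igtp, lower in males, where it called 0.354% of all genes, and DESeq2 called 5 of 10 lower, where it called 1.56%. All 10 fitted values were lower in males, and for 9 of 10 the highest male lay below the lowest female, against 10.4% of the 13005 genes tested in controls. Igtp was at 17.6, 20.1 and 21.6 CPM in the 3 males and at 63.4, 47.8 and 68.9 CPM in the 3 females, a log2 difference of -1.60 ± 0.17 (edgeR adjusted p = 0.00502). Irgm2 was at 38.5, 53.7 and 41.0 CPM in males and at 93.1, 78.8 and 90.4 CPM in females, a log2 difference of -0.98 ± 0.16 (edgeR adjusted p = 0.0429). Gbp3 differed by as much as Igtp (-1.66 ± 0.31) without passing (edgeR adjusted p = 0.062), and the ranges of Gbp6 overlapped (-0.35 ± 0.27, edgeR adjusted p = 0.565). The count changed with single livers left out. It was 0 without control replicate 1, 1 without replicate 3, 5 or 6, 3 without replicate 4 and 4 without replicate 2. Calls over all genes were not counted in these runs, so the moves cannot be set against a background. Macrophage markers summed to 573.7, 557.4 and 109.6 CPM in control males and to 774.4, 741.8 and 651.1 CPM in control females, NK markers to 4.18, 4.65 and 2.52 CPM against 8.29, 4.52 and 7.49 CPM, and their part in the difference was not tested. The response to depletion or hepatectomy was not shown to differ between sexes. The interaction was called by edgeR for 0 of 20 gene and group pairs (lowest adjusted p = 0.592), with 4 of 20 at an unadjusted p under 0.05. Over all 13831 genes the test called 3 for depletion (0.0217%) and 0 for hepatectomy (0%), so the count of 0 among the members is close to the share over all genes. Igtp had the 2 lowest unadjusted p, 0.00213 for depletion (interaction 1.34 ± 0.33 on the log2 scale) and 0.00111 for hepatectomy (1.64 ± 0.37), and 1 male depleted and 1 female hepatectomised liver limit this test. With female livers alone, 10 of 10 members were called higher in depleted livers, where 12.8% of all genes were.

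The pathway upstream of these genes was examined with lists of ligands, receptors, factors and partners. Ifng, which encodes interferon-gamma, had 29, 15, 134 and 145 counts in depleted replicates 1 to 4 (0.621, 0.336, 2.34 and 3.23 CPM), 0 to 3 counts in controls and 0, 0 and 1 counts after hepatectomy. Control and hepatectomised livers were thus at or below the 3-count floor, and Ifng passed the filter on low counts through the depleted livers alone. No fold or p-value is therefore given for Ifng, though it is counted below among the genes that rose. Its highest values were in depleted replicates 3 and 4, where the lymphocyte marker sums were also highest, and not in replicate 1, where most of the 10 GTPase genes peaked. The receptor chains changed less: Ifngr1 was 1.13 ± 0.21 higher on the log2 scale (50.3 ± 10.5 CPM, SD, n = 4, against 22.9 ± 5.19, n = 6; edgeR adjusted p = 0.00118) and Ifngr2 0.59 ± 0.16 higher (33.7 ± 7.48 against 22.2 ± 3.43 CPM; edgeR adjusted p = 0.0143), the latter with overlapping ranges. Of 14 tested genes for the ligand, the receptor and inducing cytokines, 13 rose and 0 fell in depleted livers, where 18.9% of all genes were called higher and 15% lower (median log2 fold change 3.20, against -0.03 over all genes). Among them was Il27, whose cytokine acts early on T cells. It had 65, 44, 113 and 120 counts in depleted replicates 1 to 4 (1.39, 0.986, 1.97 and 2.67 CPM) and 1 to 5 counts in single controls. Most controls were at or below the 3-count floor, and Il27 too passed the filter on low counts through the depleted livers alone. No fold or p-value is therefore given for it. Tbx21, the T-bet factor of interferon-gamma-producing lymphocytes, was 3.47 ± 0.42 higher on the log2 scale (edgeR adjusted p = 5.96e-05). Jak1 at 0.28 did not pass.

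Of 12 transcription factors and feedback genes, 9 rose and 0 fell in depleted livers, against 18.9% and 15% of all genes (median log2 fold change 2.18). Irf1 (2.02 ± 0.13, edgeR adjusted p = 1.15e-06) and Irf8, a factor of myeloid cells (3.52 ± 0.33, edgeR adjusted p = 1.34e-05), were among them, and both were higher in depleted replicates 3 and 4 than in replicates 1 and 2, while the summed level of the list was highest in replicate 1 (1510, 1074, 1375 and 1244 CPM in replicates 1 to 4). Socs1, which shuts off Jak signalling, was at 11.5, 4.21, 19.3 and 13.2 CPM in depleted livers and at 0.112 to 0.494 CPM in controls (edgeR adjusted p = 0.000269). After hepatectomy it was at 0.1176, 4.604 and 0.1746 CPM, so 1 of 3 livers (replicate 2) lay in the depleted range. Irf2, Ptpn2 and Pias1 did not pass.

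**Figure D4:**
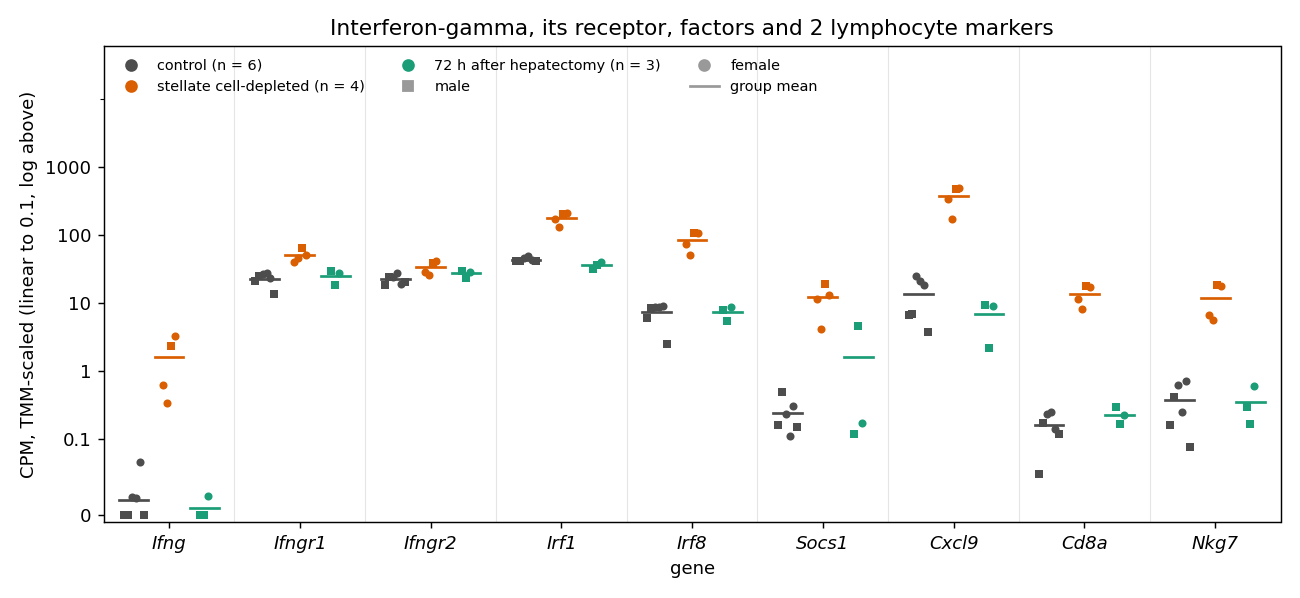
TMM-scaled CPM (axis linear to 0.1 and logarithmic above) of Ifng, its receptor chains, the transcription factors Irf1 and Irf8, Socs1, Cxcl9 and the lymphocyte markers Cd8a and Nkg7 in each liver, by group and sex; lines are group means. Depleted livers lie above controls for each gene but Ifngr2, whose ranges overlap, and Ifng is at 0 in 3 controls and 2 hepatectomised livers.

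Other genes of the families and other targets rose too. Of 13 further GBP and IRG genes tested, 10 rose and 0 fell (median 2.86), among them Gbp8 (4.86 ± 0.32, edgeR adjusted p = 1.22e-06) and Ifi47, an IRG also called Irg47 (3.40 ± 0.23, edgeR adjusted p = 1.17e-06). Of 15 other interferon-gamma targets 15 rose (median 3.70): Tap1, the peptide transporter of class I presentation, was at 188, 124, 193 and 198 CPM in depleted livers against 12.8 to 24.2 CPM in controls (3.30 ± 0.20), Psmb8, an immunoproteasome subunit, rose by 2.56 ± 0.17, and Cxcl9, a chemokine for activated T cells, was at 338, 173, 471 and 488 CPM against 3.72 to 24.9 CPM (4.86 ± 0.53; edgeR adjusted p = 3.86e-05). Type I interferon response genes had a smaller median of 1.61, with 16 of 18 higher and 0 lower, for example Rtp4 (1.65 ± 0.17) and Usp18, which removes Isg15 from proteins (1.63 ± 0.20). Many of these genes respond to both kinds of interferon, and the difference between the medians was not tested. Of 10 inflammasome and pyroptosis partners of the GBPs, 9 rose and 0 fell (median 2.54), including the adaptor Pycard (3.68 ± 0.33) and Casp4, the mouse caspase-11 (2.78 ± 0.33); Il18 stands in this list and in that of the inducing cytokines. Of 13 ubiquitin-like conjugation genes, which load GBPs and IRGs onto vacuoles, 1 rose and 1 fell (median -0.06), where 18.9% of all genes were called higher and 15% lower: Trim21, an antibody receptor and ubiquitin ligase, by 1.16 ± 0.19, and Gabarapl1, an Atg8 homologue, which went from 498 ± 81.7 CPM in controls to 223 ± 24.7 CPM (-1.18 ± 0.22; edgeR adjusted p = 0.00104).

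After hepatectomy edgeR called 6 of the 94 different genes tested in these 7 lists, or 6.38%, against 8.42% of all genes. Gbp10 was lower (-1.81, edgeR adjusted p = 0.0203). Il18r1 (2.64, adjusted p = 0.0123), Socs3 (4.29, adjusted p = 0.000344), Nos2 (adjusted p = 0.0489), Zbp1 (1.25, adjusted p = 0.0224) and Map1lc3b (0.85, adjusted p = 0.00301) were higher. Nos2 had 47 counts over the 3 hepatectomised livers, 37 of them in 1 liver, and 3 counts over the 6 controls. No fold is given for Nos2, as its controls were at the floor. With replicate number as a block, where 4.57% of all genes were called, the lists of Il18r1 and of Nos2 and Zbp1 held 0 calls. In that run 1 type I interferon response gene was lower. With 1 liver left out, the list of Nos2 and Zbp1 held 0 calls without control replicate 1, 2 or 6 or hepatectomised replicate 2. That of Gbp10 held 0 without hepatectomised replicate 1 or 2, and that of Il18r1 held 0 without hepatectomised replicate 3. Over all genes these runs called 692 of 13819, 742 of 13816 and 981 of 13828 without control replicates 1, 2 and 6. They called 948 of 14099, 483 of 14096 and 960 of 14066 without hepatectomised replicates 1, 2 and 3, in place of 1164 of 13831. With all libraries edgeR called 0 of 18 type I response genes (6 at an unadjusted p under 0.05, and 2 called by DESeq2, which called 14% of all genes). Of 10 inflammasome partners edgeR called 0 (0 unadjusted and 0 by DESeq2). An unadjusted edgeR p under 0.05 was also found for 7 of 12 transcription factors and feedback genes and 7 of 15 other interferon-gamma targets. The counts were 4 of 13 ubiquitin-like conjugation genes, 2 of 14 ligand, receptor and cytokine genes and 2 of 13 further GBP and IRG genes. Without control replicate 6 there was 1 call among the type I genes. Without hepatectomised replicate 1 there was 1 among the partners and 3 in the list of Socs3. The list of Map1lc3b held 2 calls without control replicate 6 or hepatectomised replicate 3. The calls over all genes in these runs are those given above.

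**Figure D5:**
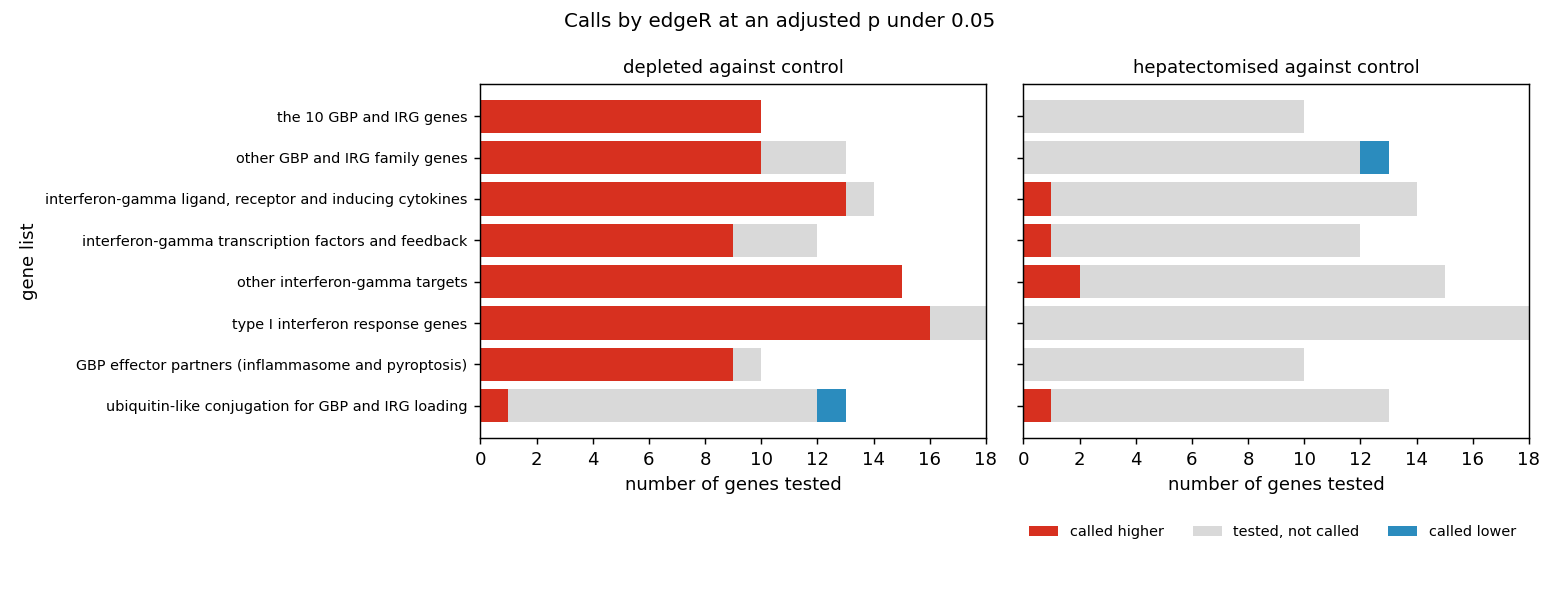
Number of genes tested (horizontal axis) in 8 lists, split into called higher, called lower and tested but not called (edgeR, adjusted p under 0.05), for depleted against control and hepatectomised against control livers, which share their controls. In depleted livers 10 of 10 GTPase genes and 15 of 15 other interferon-gamma targets are higher, and after hepatectomy 0 of 10 GTPase genes are called.

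Markers of immune cells were also higher in depleted livers, where 18.9% of all genes were called higher and 15% lower. In depleted livers 10 of 10 T cell markers tested rose, and their summed level was 49.3 to 114 CPM against 3.33 to 6.11 CPM in controls; Cd8a was at 8.198 to 18.04 CPM against 0.0536 to 0.247 CPM (6.36 ± 0.37, edgeR adjusted p = 6.21e-07). NK and cytotoxic markers rose in 10 of 10 cases (78.9 to 196 CPM against 2.52 to 8.29 CPM), with Nkg7 at 5.71 to 18.1 CPM against 0.0900 to 0.725 CPM (4.99 ± 0.55, edgeR adjusted p = 3.62e-05). Macrophage markers rose in 9 of 12 (1837 to 3485 against 109.6 to 774.4 CPM), neutrophil and monocyte markers in 9 of 9 (224.8 to 373.7 against 2.49 to 9.27 CPM, Ly6g being at 0 in all controls) and B cell markers in 5 of 5 (22.9 to 36.3 against 3.35 to 6.82 CPM). After hepatectomy, where 0 of the 10 GTPase genes were called, 5 of 9 neutrophil and monocyte markers rose (18.3 to 31.2 CPM), where 6.06% of all genes did. There 2 of 5 B cell markers fell (0.814 to 4.49 CPM), where 2.36% of all genes did. In that comparison 0 of 10 T cell, 0 of 10 NK and 0 of 12 macrophage markers were called. In depleted livers 3 macrophage markers did not pass, and they are named after their values were seen. They were the Kupffer cell genes Clec4f (-3.00), Vsig4 (-0.88) and Cd5l (1.49), with edgeR adjusted p = 0.0872, 0.287 and 0.0714. Timd4 (2.13) and Marco (4.73), also genes of resident Kupffer cells, passed (edgeR adjusted p = 0.0218 and 0.000679). Of the sinusoidal endothelial markers 1 of 10 rose and 0 fell, with sums of 401 to 704 CPM against 120 to 567 CPM. Of 10 hepatocyte markers 0 rose and 2, Cyp2e1 and Ass1, fell. Which cells carried the GBP and IRG transcripts cannot be read from whole liver, and the part of these cell types in the differences was not tested.

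The genes whose pattern was most like the mean standardised level of the 10 over the 13 libraries, of 10567 candidates with a mean log2 CPM of at least 1, included Gbp4 (r = 0.987), Cap1 (0.986), Cd274 (0.985), Gbp8 (0.983), Rgs12 (0.983), Itgb7 (0.983), Samhd1 (0.982), Itga4 (0.976) and Elf4 (0.976). The log2 fold changes of these 9 in depleted livers ran from 0.82 for Cap1 to 4.86 for Gbp8, so a likeness of pattern was found at very different sizes of change. The correlations describe 13 libraries that share a group difference. After removal of group and sex means, Cd274 (residual r = 0.882) and Rgs12 (0.918) were still among the 10 most alike.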

How the data were processed

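Whole-liver libraries were made from 500 ng of total RNA with a stranded mRNA kit, per the labels' protocols. The submitters' processing notes name STAR 2.7.1a, SAMtools 1.15.1, featureCounts 1.6.4 and mm10; strand setting and multi-mapped reads are not given in the sources used here. The authors deposited raw counts per gene for 22048 genes with exon coordinates and length. Of the IDs, 21741 matched a symbol.

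Counts were tested with edgeR 4.0.16 (quasi-likelihood F-test, robust; R 4.3.3) over all 13 libraries with group and sex as terms, TMM scaling and filterByExpr (13831 genes kept), two-sided, with Benjamini-Hochberg adjustment over all genes and a threshold of 0.05. A gene is called where it passes that threshold. Fold changes are fitted values, and the SE is the fold change over the root of F. The biological coefficient of variation was 31.4%. Log2 CPM for correlations used a prior count of 2. The procedure was tested on simulated data. No 2 libraries of a group agreed within sampling noise. Alternatives were scaling, DESeq2 1.42.0, limma-voom 3.58.1, no filter, no sex term, a replicate block, females only, 2 groups only and each library left out.

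The 10 genes, the lists and the rule for naming were chosen with earlier results of these data known. Named by rule were all 10 genes, up to 2 called genes in each direction with the lowest p of each pathway list, 10 fixed pathway genes and the 10 most alike; the other genes of the pathway lists were named after their values were seen. Of the genes named by rule, 1 is not reported here. The comparison of male and female controls and the joint omission of control replicate 6 and hepatectomised replicate 2 were added after seeing the data.

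Replicate numbers come from the labels, which do not say that they pair animals. Deviations from group means of same-numbered hepatectomised and control livers correlated at 0.107 to 0.523 (3 pairs, each of 1 sex), so the block is given beside that result; once sex was removed as well, the 3 correlations were -0.191 to 0.084.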

Additional observations from a re-analysis of the deposited data

Results flagged for a closer look

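Among 64 sets of 4 or 6 livers examined for a value far from the others of its group, 4 held such a value, and chance gives about 1 in 20, or 3.2. Gbp5 in depleted replicate 2 was at 60.3 CPM, with the nearest of the other 3 at 108.9 CPM, a gap that took up 0.910 of the group's range. Igtp in depleted replicate 1 was at 893.9 CPM, with the nearest at 642.4 CPM (0.851 of the range). Tap1 in depleted replicate 2 was at 124.4 CPM, with the nearest at 188.0 CPM (0.863 of the range). Ifng in control replicate 5 was at 0.0702 CPM, from 3 counts, with the nearest at 0.0236 CPM (0.664 of the range).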

How the results depend on the processing

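The calls of all 10 genes in depleted against control and in depleted against hepatectomised livers held in every alternative run, including female livers alone with 1 hepatectomised liver, with 10 of 10 called and the same direction in 200 of 200 and 170 of 170 gene and setting pairs. Against control, log2 fold changes ranged from 2.28 (Iigp1) to 5.70 (Gbp5) over the alternatives. The numbers of genes called over the whole table moved more. With female livers alone, where the hepatectomised group is 1 liver assumed to vary like the other groups, they were 2726, 90 and 1263 for depleted against control, hepatectomised against control and depleted against hepatectomised livers, in place of 4692, 1164 and 3236. Leaving out 1 library gave 2960 to 4817, 483 to 1331 and 1709 to 3850, the low ends without depleted replicate 3, hepatectomised replicate 2 and depleted replicate 3; hepatectomised against control also gave 692 without control replicate 1 and 742 without control replicate 2. Leaving out control replicate 6 and hepatectomised replicate 2 together gave 412 for hepatectomised against control. For the same comparison, library size alone gave 2192, DESeq2 1939 and the replicate block 632; fitting only the 2 groups gave 2105 for depleted against hepatectomised livers. The replicate block gave 3887 for depleted against control and 3170 for depleted against hepatectomised livers. Same-numbered depleted and control livers correlated at -0.34 to 0.073 and depleted and hepatectomised livers at -0.351 to -0.001, so those numbers were not taken as pairs. Once sex was removed as well, the correlations were -0.098 to 0.416 and 0.041 to 0.272, and whether the numbers mark pairs was not settled. The block changed no call of the 10 genes in any comparison. The cause of these moves was not tested, beyond the smaller number of libraries where some were left out.

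Hepatectomised against control, 1 of the 10 genes was called with library size alone and 1 with DESeq2, Gbp7 in both. Fitted values near 0 that never passed the test changed sign: Gbp5 (0.06) to -0.17 with library size alone, -0.11 without the sex term, -0.10 with the replicate block and -0.26 in females alone; Igtp (0.09) to -0.13, -0.28 and -0.88 with library size alone, without the sex term and in females alone; Irgm1 (-0.01) to 0.05 with the block and 0.03 with only the 2 groups. With 1 library left out Gbp5 ran from -0.19 to 0.18, Igtp from -0.13 to 0.49, Irgm1 from -0.31 to 0.22 and Irgm2 from -0.22 to 0.29, and with control replicate 6 and hepatectomised replicate 2 both left out Gbp5 was at -0.05 and Igtp at -0.04. Between male and female controls, 5 members were called by DESeq2, where 1.56% of all genes were called lower in males. With 1 control left out 0 to 4 members were called, and calls over all genes were not counted in those runs. Of the 10 genes most alike in pattern, 2 were among the first 10 after removal of group and sex means.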
